A study of Homo sapiens and Mus musculus with 29 samples.

Results

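The adhesion genes described here are 36 genes for integrins, laminin chains, cadherins and 6 other surface adhesion molecules. They were listed by gene symbol, with earlier results of these data known. Of the 36, 30 reached a mean of 0.3 RPKM (reads scaled to transcript length and to the mapped reads of the library) over 21 HPAF-II libraries and were tested among 19900 genes, of 58719 gene identifiers in the table. In the KPC table, 26 of the 36 mouse orthologs reached that mean and were tested among 16682 genes, of 54446 identifiers.

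HPAF-II is a human pancreatic adenocarcinoma cell line. All HPAF-II samples came from cells with a CRISPR label, grown as orthotopic xenografts in the pancreas of NSG mice. These mice lack lymphocytes and natural killer cells but keep myeloid cells. For the knockout, the methods of the study describe Cas9 given as protein by electroporation. The groups were 3 control tumors with Cas9 and an empty vector, 4 HNF4G-KO tumors (CRISPR disruption of HNF4G, with an empty vector), 3 FOXA1-OE tumors (Cas9 with lentiviral FOXA1) and 5 tumors with both, HNF4G-KO+FOXA1-OE. Metastases were sampled from the peritoneum of 2 HNF4G-KO mice, and 4 metastases came from the peritoneum, peritoneal fat or spleen of 3 HNF4G-KO+FOXA1-OE mice. The HNF4G-KO cells were a pool of clones that, by the methods of the study, held heterozygotic frameshifts. KPC are mouse pancreatic tumor cells. The KPC samples were cultured lines, untreated and labeled wild type, with 4 libraries from a primary tumor line and 4 from a liver metastasis line.

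Integrins are receptors made of an alpha and a beta chain that hold cells to the matrix around them, and the pairing sets which matrix protein is bound. Laminins are trimers of an alpha, a beta and a gamma chain that build the basement membrane under epithelia. Cadherins join neighbouring cells through calcium-dependent contacts, with E-cadherin as the epithelial form. In pancreatic ductal cells, integrins of the ITGA6 and ITGB4 chains anchor the cell to laminin at hemidesmosomes, while the beta 6 and beta 8 chains pair with ITGAV and activate TGF-beta.

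Estimated depth, in units of 1000000 reads, was 33.1 to 69.6 in the HPAF-II libraries and 30.1 to 44.4 in the KPC libraries. Mitochondrial genes took 17.0% to 52.8% of the summed RPKM of an HPAF-II library. All 10 epithelial markers, keratins and claudins among them, were at 1 RPKM or more in every HPAF-II library, and 7 to 8 of 10 were in the KPC lines. Host cells in the xenografts are mouse cells, and mouse transcripts can align to the human genome. The sums of fibroblast, smooth muscle and leukocyte markers given below may therefore hold mouse reads, and this was not tested. The level of HNF4G mRNA was not lower in the tumors labeled HNF4G-KO, at 5.72 to 8.42 RPKM against 2.48 to 3.47 in controls (limma adjusted p = 0.0813), so mRNA level does not check that label. FOXA1 was at 0.519 to 0.932 RPKM in controls and at 4.65 to 23.1 in HNF4G-KO+FOXA1-OE tumors. Without added FOXA1, HNF4G-KO tumors were at 1.26 to 1.87 RPKM and HNF4G-KO metastases at 0.362 and 0.602. The FOXA1-OE tumors were at 6.32, 8.18 and 0.763 RPKM, so the third library labeled FOXA1-OE held no more FOXA1 than a control. The HNF4G-KO+FOXA1-OE metastases were at 0.535, 17.9, 1.30 and 1.55 RPKM, so libraries 1, 3 and 4 labeled as such lay below every tumor of that genotype, and metastasis 1 lay within the range of the controls. FOXA1-OE tumor 3 and HNF4G-KO+FOXA1-OE tumor 5 also stood apart in how long genes compared with short ones. Taking the median log2 deviation of the longest genes minus that of the shortest genes (the outer quintiles of length), they lay at -0.31 and -0.59, while the 4 HNF4G-KO tumors lay between 0.21 and 0.28 and the controls between -0.25 and 0.02. The part of this length difference in the results below was not tested beyond a fit with the length and GC trend removed.

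On the RPKM scale, which corrects for gene length, HPAF-II samples were dominated by the epithelial adhesion set. EPCAM, the epithelial cell adhesion molecule, had the highest mean over the libraries at 412 RPKM. The chains of the hemidesmosome integrin followed, with ITGA6 at 119 and ITGB4 at 118, beside the common partner ITGB1 at 121. LAMB3, a chain of laminin-332, was at 93.9 RPKM and CDH1, or E-cadherin, at 83.7. ITGA3, the alpha chain of another laminin-332 receptor, was at 84.4, and LAMA5 at 54.9. The ranges of ITGB1, ITGA6 and ITGB4 over libraries lay across each other, so these 3 have no order. Below 0.3 RPKM were ITGA9, ITGB3, LAMA1, LAMA2, CDH2 and CDH6, so N-cadherin (CDH2) and the vitronectin receptor chain ITGB3 were not tested. The KPC lines had another order, with Cdh1 at 229.6 RPKM, Itga3 at 189, Lama5 at 175 and Itgb1 at 174. Epcam averaged only 3.82 RPKM there, while Itgb3 was at 17.0 to 26.4, Cdh2 at 9.78 to 16.7 and Cdh6 at 11.0 to 16.6. The genes that missed 0.3 RPKM in the KPC lines were Itga7, Itga9, Itgb8, Lama1, Lama2, Lama3, Lama4, Cdh11, L1cam and Nectin4.

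The first comparison sets primary tumors labeled HNF4G-KO against control tumors. In HNF4G-KO tumors 5 of the 30 tested genes changed against controls at an adjusted p under 0.05 (limma), 3 upward and 2 downward. The shares over all genes tested were 9.33% called, 4.96% higher and 4.37% lower and are the background for these counts. ITGB7, NECTIN1 and ITGB6 rose, and ITGA1 and L1CAM fell. A further 5 genes had an unadjusted p under 0.05, which made 10 of 30, where 5485 of all 19900 genes were under it. The HNF4G-KO and control tumors did not overlap for 15 genes, 10 higher and 5 lower, in a design in which 41.1% of all genes did not overlap. The median difference over the 30 genes was 0.10 on the log2(RPKM + 1) scale, against -0.002 over all genes, and 16 were positive and 14 negative.

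ITGB7 codes for the beta 7 chain, known from lymphocytes, where it binds E-cadherin or the gut addressin with its alpha partners. Its level was 0.345, 0.394 and 0.208 RPKM in the 3 controls and 1.46, 1.26, 1.22 and 1.33 in the 4 HNF4G-KO tumors. Every HNF4G-KO tumor lay above every control. The log2 difference was 0.82 (SE 0.17, limma adjusted p = 0.0133). ITGB7 lies at chr12:53191323-53207282 on the minus strand (GRCh38, GENCODE 44) and overlaps ZNF740 on the other strand, which was at 4.44 to 5.34 RPKM in controls and 5.60 to 7.93 in HNF4G-KO tumors. How the counting treated strand is not given in the sources used here, so reads of overlapping genes cannot be told apart.

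NECTIN1, an immunoglobulin-type molecule of adherens junctions that recruits afadin, rose as well. Its values were 17.0, 17.9 and 12.5 RPKM in controls and 26.9, 23.3, 33.2 and 32.1 in HNF4G-KO tumors, without overlap. This was a log2 difference of 0.83 (SE 0.20, adjusted p = 0.0247). NECTIN4, its relative in the same family, was at 8.28, 7.20 and 10.1 RPKM in controls and at 16.6, 13.0, 12.6 and 14.7 in HNF4G-KO tumors, and missed the threshold (log2 difference 0.68, adjusted p = 0.0914).

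ITGB6, the epithelial beta chain that pairs with ITGAV and activates latent TGF-beta, was at 34.4, 30.2 and 26.0 RPKM in controls and at 47.6, 63.7, 54.5 and 45.7 in HNF4G-KO tumors. The lowest HNF4G-KO tumor stood above the highest control. ITGB6 differed by 0.79 on the log2 scale (SE 0.20, adjusted p = 0.0283). ITGAV itself was at 13.9 to 17.9 RPKM in controls and 19.3 to 32.8 in HNF4G-KO tumors, also without overlap, but did not pass (log2 difference 0.64, adjusted p = 0.162). With the length and GC trend removed the ITGB6 difference was 0.56 and its adjusted p 0.0526. The ITGB6 call held in 10 of 17 alternatives.

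ITGA1, the alpha chain of a collagen receptor, fell. The controls were at 4.31, 3.13 and 4.61 RPKM and the HNF4G-KO tumors at 1.63, 2.64, 1.39 and 2.09, so that all 4 lay below the lowest control. The log2 difference was -0.78 (SE 0.21, adjusted p = 0.0386). The call was lost in 8 of 17 alternatives, among them no filter on low values (adjusted p = 0.0801) and the fibroblast markers as a covariate (-0.69, adjusted p = 0.0570), and over the alternatives the adjusted p ran from 0.00176 to 0.137. The summed smooth muscle markers were at 16.7 to 22.0 RPKM in controls and 8.90 to 10.9 in HNF4G-KO tumors, where 3 and 2 of the 6 were at 1 RPKM or more. The summed fibroblast markers were at 51.1 to 187 RPKM in controls (median 179.8) and 47.3 to 68.3 in HNF4G-KO tumors (median 57.3), with 4 to 5 and 4 of the 12 at 1 RPKM or more. The part of the smooth muscle markers in the ITGA1 result was not tested. PELO, a gene on the same strand within the ITGA1 locus, was at 7.28 to 9.18 RPKM in controls and 4.78 to 5.58 in HNF4G-KO tumors, and its reads and those of ITGA1 may have been split between them in counting. The other collagen-binding chain, ITGA2, went the opposite way in value, at 19.0 to 26.2 RPKM in controls and 29.8 to 43.1 in HNF4G-KO tumors, without passing (log2 difference 0.79, adjusted p = 0.184).

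L1CAM, a neural adhesion molecule of the immunoglobulin superfamily, was the lowest gene tested, with a mean of 0.774 RPKM. It was at 1.25, 1.06 and 1.16 RPKM in controls and at 0.526, 0.606, 0.622 and 0.686 in HNF4G-KO tumors. All HNF4G-KO tumors were below all controls, and the log2 difference was -0.42 (SE 0.12, adjusted p = 0.0414). The call was lost in 13 of 16 alternatives, among them a pseudocount of 0.1 in place of 1. For each of these 5 genes the two-sided exact permutation test gave p = 0.0571, the smallest p that 3 against 4 tumors allow. That value is fixed once groups do not overlap, so it is no further support.

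**Figure D1:**
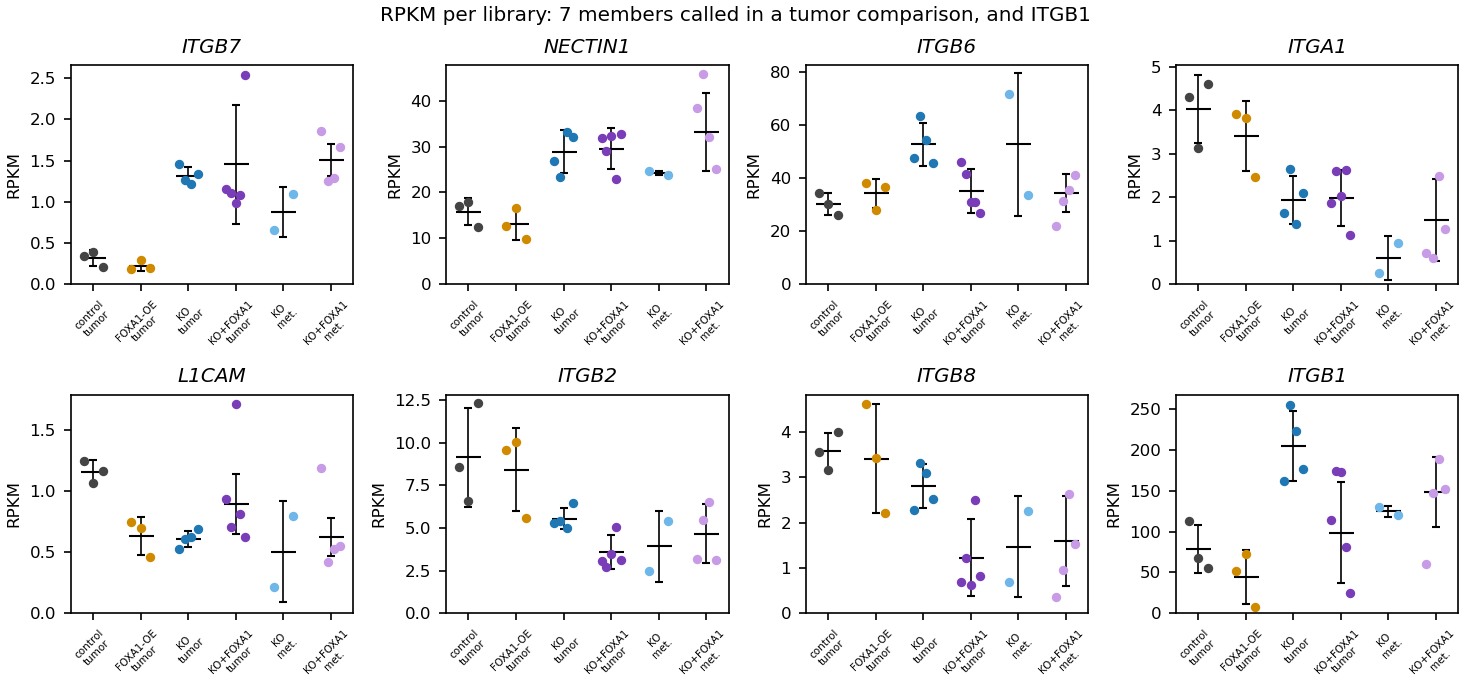
RPKM (vertical) of each library for the 7 adhesion genes called in a comparison of primary tumors, and for ITGB1, by group, with lines for the group mean and SD over mice. ITGB7 and NECTIN1 were higher in the HNF4G-KO and HNF4G-KO+FOXA1-OE tumors than in the control and FOXA1-OE tumors. Among primary tumors the HNF4G-KO+FOXA1-OE group had the lowest mean of ITGB2 and of ITGB8.

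These calls rest on few libraries. Leaving out control tumor 2 or control tumor 3 left 0 of the 30 called, and leaving out HNF4G-KO tumor 3 or 4 left 1. Leaving out control tumor 1, HNF4G-KO tumor 1 or HNF4G-KO tumor 2 left 3. When FOXA1-OE tumor 3 and HNF4G-KO+FOXA1-OE tumor 5, which share the estimate of spread, were both left out, 11 were called. This alternative was chosen after seeing the data, and its share over all genes is not given here.

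Among the other integrin chains, ITGB1 had the largest log2 difference of all 30 genes and the widest spread. It was at 112, 67.7 and 56.0 RPKM in controls and at 162, 255, 223 and 177 in HNF4G-KO tumors. The groups did not overlap, with means of 78.7 ± 29.8 (SD, n = 3) and 204 ± 42.7 (SD, n = 4), yet the log2 difference of 1.41 (SE 0.68) had an adjusted p of 0.200. A processed copy, ITGB1P1, was listed with a mean of 5.54 RPKM, so reads may have been split between the copies. The length difference of each library is plotted beside its ITGB1 level, and its part in the ITGB1 values was not tested. FOXA1-OE tumor 3 held 7.56 RPKM at a length difference of -0.31 and HNF4G-KO+FOXA1-OE tumor 5 held 25.2 at -0.59, while HNF4G-KO tumor 2, the highest at 255, had 0.28. Other libraries did not follow that order, such as FOXA1-OE tumor 2, which held 72.3 RPKM at 0.15, and control tumor 1, which held 112 at 0.02.

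**Figure D2:**
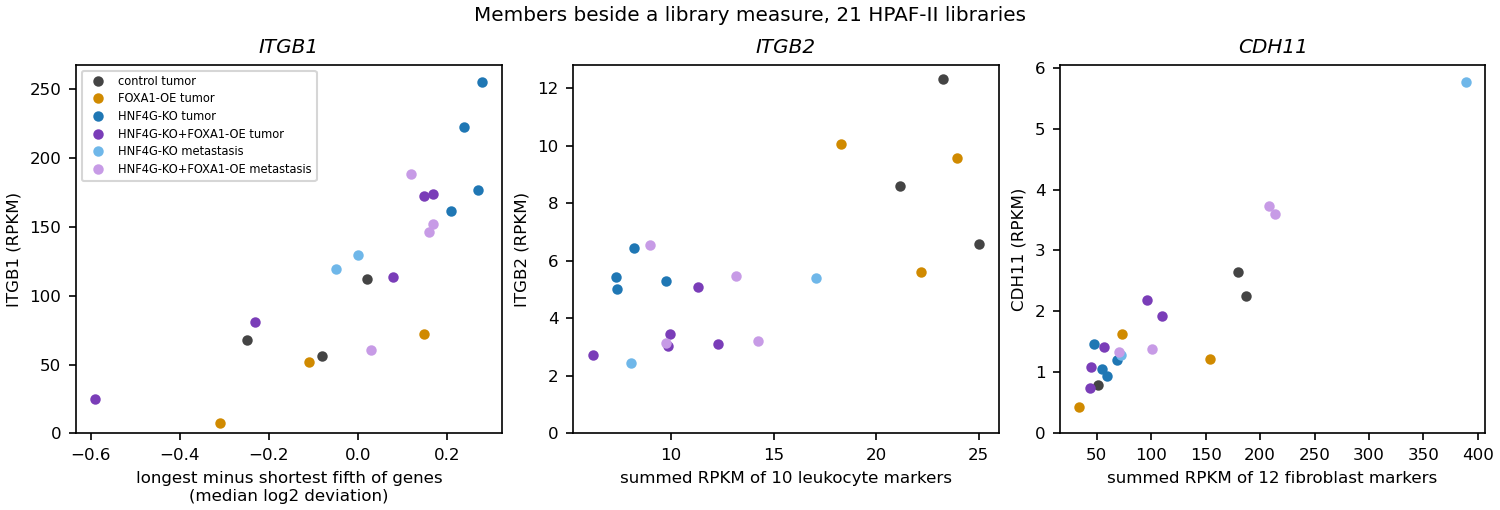
Left, ITGB1 (RPKM) against the length difference of each library (median log2 deviation of the longest minus the shortest quintile of genes by length). Middle, ITGB2 against the summed RPKM of the leukocyte markers, and right, CDH11 against the summed RPKM of the fibroblast markers. Points are the 21 HPAF-II libraries, colored by group. FOXA1-OE tumor 3 and HNF4G-KO+FOXA1-OE tumor 5, with the lowest length difference, held the lowest ITGB1, and the metastasis with 389 RPKM of fibroblast markers held the most CDH11.

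The remaining integrin, laminin and cadherin genes stayed within the spread of the tumors or did not pass. None of the 7 laminin chains was called, and their differences ran from -0.17 (LAMB3) to 0.37 (LAMA3). Of the chains of laminin-511, LAMA5 was at a mean of 57.9 RPKM in each group and LAMB1 at 24.6 in HNF4G-KO against 24.1 in control tumors. LAMC1 was the laminin chain without overlap, at 12.9 to 14.7 RPKM in HNF4G-KO tumors against 9.15 to 12.5 in controls, and did not pass (log2 difference 0.24, adjusted p = 0.502). The interval for LAMA5, -0.68 to 0.63, leaves room for a difference in either direction. Of the cadherins, CDH1 was at 79.1, 63.5 and 47.2 RPKM in controls and at 102, 89.5, 98.6 and 106 in HNF4G-KO tumors, apart but short of the threshold (log2 difference 0.67, adjusted p = 0.108). P-cadherin, CDH3, differed by 0.35 and the mesenchymal cadherin CDH11 by -0.36, both with overlap. EPCAM differed by -0.03 and CD44, the hyaluronan receptor, by -0.20.

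Promoters are shown for integrin genes called in a comparison of tumors by HNF4G genotype, because HNF4G is a DNA-binding factor. No adhesion gene was called in either comparison that adds FOXA1. They are from RefSeq (GRCh38.p14) and span 250 bases before and 50 after an annotated start, 5′ to 3′, and 23 of the 36 genes had one in the table. Capitals mark the E-box match in ITGB6 and the FOXA match in ITGA2. ITGA2, which was called in no comparison, is shown as the integrin promoter with a FOXA match, and it also holds a GC box that is left in lower case.
ITGB7, chr12:53207202-53207501, minus strand: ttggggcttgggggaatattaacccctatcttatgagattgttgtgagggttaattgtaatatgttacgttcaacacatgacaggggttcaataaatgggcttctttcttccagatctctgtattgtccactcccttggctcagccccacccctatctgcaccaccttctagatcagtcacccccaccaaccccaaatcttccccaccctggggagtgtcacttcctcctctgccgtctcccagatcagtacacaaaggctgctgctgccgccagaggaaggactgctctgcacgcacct
ITGB6, chr2:160200223-160200522, minus strand: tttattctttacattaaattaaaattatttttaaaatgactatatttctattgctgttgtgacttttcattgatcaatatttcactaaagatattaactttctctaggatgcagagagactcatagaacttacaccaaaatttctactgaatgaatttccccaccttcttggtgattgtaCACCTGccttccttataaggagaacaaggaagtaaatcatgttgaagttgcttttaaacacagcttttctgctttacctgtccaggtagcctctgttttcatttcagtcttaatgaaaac
ITGA1, chr5:52787666-52787965, plus strand: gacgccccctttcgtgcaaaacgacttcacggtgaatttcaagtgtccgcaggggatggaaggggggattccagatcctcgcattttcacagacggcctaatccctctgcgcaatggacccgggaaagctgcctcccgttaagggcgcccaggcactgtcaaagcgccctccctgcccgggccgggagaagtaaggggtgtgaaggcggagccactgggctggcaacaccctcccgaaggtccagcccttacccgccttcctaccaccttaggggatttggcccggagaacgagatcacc
ITGB8, chr7:20330650-20330949, plus strand: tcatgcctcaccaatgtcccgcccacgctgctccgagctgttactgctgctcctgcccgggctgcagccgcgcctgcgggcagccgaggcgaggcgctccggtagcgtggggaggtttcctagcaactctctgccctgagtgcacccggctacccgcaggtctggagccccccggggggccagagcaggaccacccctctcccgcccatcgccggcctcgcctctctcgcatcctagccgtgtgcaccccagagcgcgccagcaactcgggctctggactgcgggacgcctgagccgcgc
ITGA2, chr5:52989102-52989401, plus strand: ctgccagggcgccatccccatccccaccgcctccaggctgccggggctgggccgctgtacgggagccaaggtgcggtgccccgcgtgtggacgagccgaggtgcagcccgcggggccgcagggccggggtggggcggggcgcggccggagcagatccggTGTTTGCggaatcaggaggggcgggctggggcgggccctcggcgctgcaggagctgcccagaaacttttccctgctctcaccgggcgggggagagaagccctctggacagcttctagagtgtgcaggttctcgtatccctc
Both strands were searched. Of the 23 genes, one was counted if any of its promoters held a match, and some genes have more than 1 promoter. The shares are over single promoters, so counts and shares are not like for like. The HNF4 letters CAAAGTCCA, CAAAGTTCA or CAAAGGTCA were in 0 of the 23 genes, against 1.08% of 35116 promoters of the same length. The shorter HNF4 core CAAAGTC or CAAAGTT, which overlaps the longer letters, was in 3 (CDH2, ITGAV and LAMB2), against 6.43% of all. In ITGAV it lay in the promoter at chr2:186599955-186600254 and not in that at chr2:186589806-186590105. The FOXA letters TGTTTAC or TGTTTGC were in 2 (CDH2 and ITGA2), against 7.17%, and in ITGA2 the match TGTTTGC lay 91 bases before the start. An E-box CAGGTG was in 8 of 23, against 20.6%, among them ITGB6, where CACCTG on the printed strand lay 70 bases before the start. A GC box GGGGCGGGG was in 7, against 15.7%, and an AP-1 motif TGAGTCA or TGACTCA in 3 (ITGA5, LAMA3 and LAMB3), against 4.95%. A match is a description of letters, and its absence says only that these letters are not in this window.

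FOXA1 alone was asked about in the FOXA1-OE tumors. Against controls, limma called 0 of the 30 genes (0% of all genes), and 1 had an unadjusted p under 0.05 (1021 of all 19900 genes). That gene was L1CAM, at 0.743, 0.696 and 0.456 RPKM in FOXA1-OE tumors, all below the controls (log2 difference -0.41, SE 0.13, adjusted p = 0.840). L1CAM and NECTIN4 were the genes without overlap between these groups, 1 lower and 1 higher, where 9.50% of all genes did not overlap. The next smallest p-values belonged to ITGA6 and ITGB1. ITGA6 was at 98.9, 106 and 54.9 RPKM, against 150, 125 and 96.1 in controls, with a log2 difference of -0.54 (SE 0.31). ITGB1 was at 52.2, 72.3 and 7.56 RPKM, with a log2 difference of -1.25 (SE 0.73), which was -0.29 without FOXA1-OE tumor 3 and HNF4G-KO+FOXA1-OE tumor 5. Both groups overlapped for ITGA6 and for ITGB1, and the third tumor, the one without raised FOXA1, was the lowest for both. Over the 30 genes 4 were positive and 26 negative, with a median of -0.15 against -0.025 over all genes. These signs include FOXA1-OE tumor 3 and were not recounted without it.

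Adding both changes gave 4 called genes against controls, and the same 4 genes against FOXA1-OE tumors. The comparisons share the HNF4G-KO+FOXA1-OE tumors, of which numbers 2 and 3 came from 1 mouse and were averaged, so n is 4 mice. Against controls 2 rose and 2 fell (3.70% of all genes called, 1.79% higher and 1.90% lower). Against FOXA1-OE tumors 2 rose and 2 fell as well (6.77% called, 2.96% higher and 3.80% lower). Groups did not overlap for 9 genes against controls and 4 against FOXA1-OE tumors, where 17.1% and 14.3% of all genes did not overlap.

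ITGB7 and NECTIN1 rose in both. ITGB7 was at 1.15, 1.11, 0.985, 1.08 and 2.54 RPKM in the HNF4G-KO+FOXA1-OE tumors and at 0.178, 0.297 and 0.198 in FOXA1-OE tumors. All HNF4G-KO+FOXA1-OE tumors lay above all FOXA1-OE and control tumors. The log2 difference was 0.86 against controls (adjusted p = 0.0150) and 0.96 against FOXA1-OE (adjusted p = 0.00511). NECTIN1 was at 31.9, 28.9, 32.4, 22.9 and 32.7 RPKM with both changes and at 12.7, 16.6 and 9.88 in FOXA1-OE tumors. The difference was 0.87 against controls (adjusted p = 0.0338) and 1.13 against FOXA1-OE (adjusted p = 0.00548).

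ITGB2, the beta chain of the leukocyte integrins, fell. It was at 8.58, 6.59 and 12.3 RPKM in controls, 9.55, 10.1 and 5.62 in FOXA1-OE tumors and 3.04, 2.73, 3.46, 5.08 and 3.12 with both changes. No tumor with both changes reached the lowest control or FOXA1-OE tumor. The log2 difference was -1.13 against controls (SE 0.23, adjusted p = 0.0168) and -1.03 against FOXA1-OE (SE 0.23, adjusted p = 0.0168). The HNF4G-KO tumors, at 5.28, 5.43, 5.01 and 6.44 RPKM, stood between, with a difference of -0.60 from controls that did not pass (adjusted p = 0.111). The leukocyte markers summed to 21.2 to 25.0 RPKM in controls and 18.3 to 24.0 in FOXA1-OE tumors. They were lower in both other groups, at 7.33 to 9.76 in HNF4G-KO (median 7.79) and 6.17 to 12.3 in HNF4G-KO+FOXA1-OE tumors (median 9.93). ITGB2 was not called between these groups, whose ranges overlapped, at 5.01 to 6.44 RPKM in HNF4G-KO tumors and 2.73 to 5.08 with both changes. Among the 10 leukocyte markers, 4 were at 1 RPKM or more in every control and 1 to 3 in an HNF4G-KO tumor. In a FOXA1-OE or HNF4G-KO+FOXA1-OE tumor 2 to 4 were. The part of these markers in the ITGB2 result was not tested. ITGB2-AS1, on the opposite strand, was at 19.1 to 27.5 RPKM in controls and 6.55 to 20.5 with both changes, which is more than ITGB2 itself. In bulk tumor RNA, fewer cells of a type and less RNA per cell cannot be told apart. Reads of the human tumor cells and aligned reads of mouse host cells cannot be told apart here either.

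ITGB8, the other ITGAV partner that activates TGF-beta, fell too. Controls were at 3.56, 3.16 and 3.99 RPKM, FOXA1-OE tumors at 4.60, 3.42 and 2.21, and tumors with both changes at 0.694, 1.21, 0.623, 2.49 and 0.815. Tumor 4, at 2.49, lay within the range of the FOXA1-OE tumors, and the other 4 lay below all others. The log2 difference was -1.10 against controls (SE 0.25, adjusted p = 0.0259) and -1.02 against FOXA1-OE (SE 0.25, adjusted p = 0.0249). Its antisense partner ITGB8-AS1 was at 2.70 to 6.07 RPKM in controls and 1.09 to 3.35 with both changes. Where the groups had no overlap, ITGB7, NECTIN1 and ITGB2 in both comparisons and ITGB8 against controls, the exact permutation test (two-sided) gave p = 0.0571, the smallest it can give, and for ITGB8 against FOXA1-OE it gave p = 0.114. A lack of overlap fixes the smallest p in advance.

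**Figure D3:**
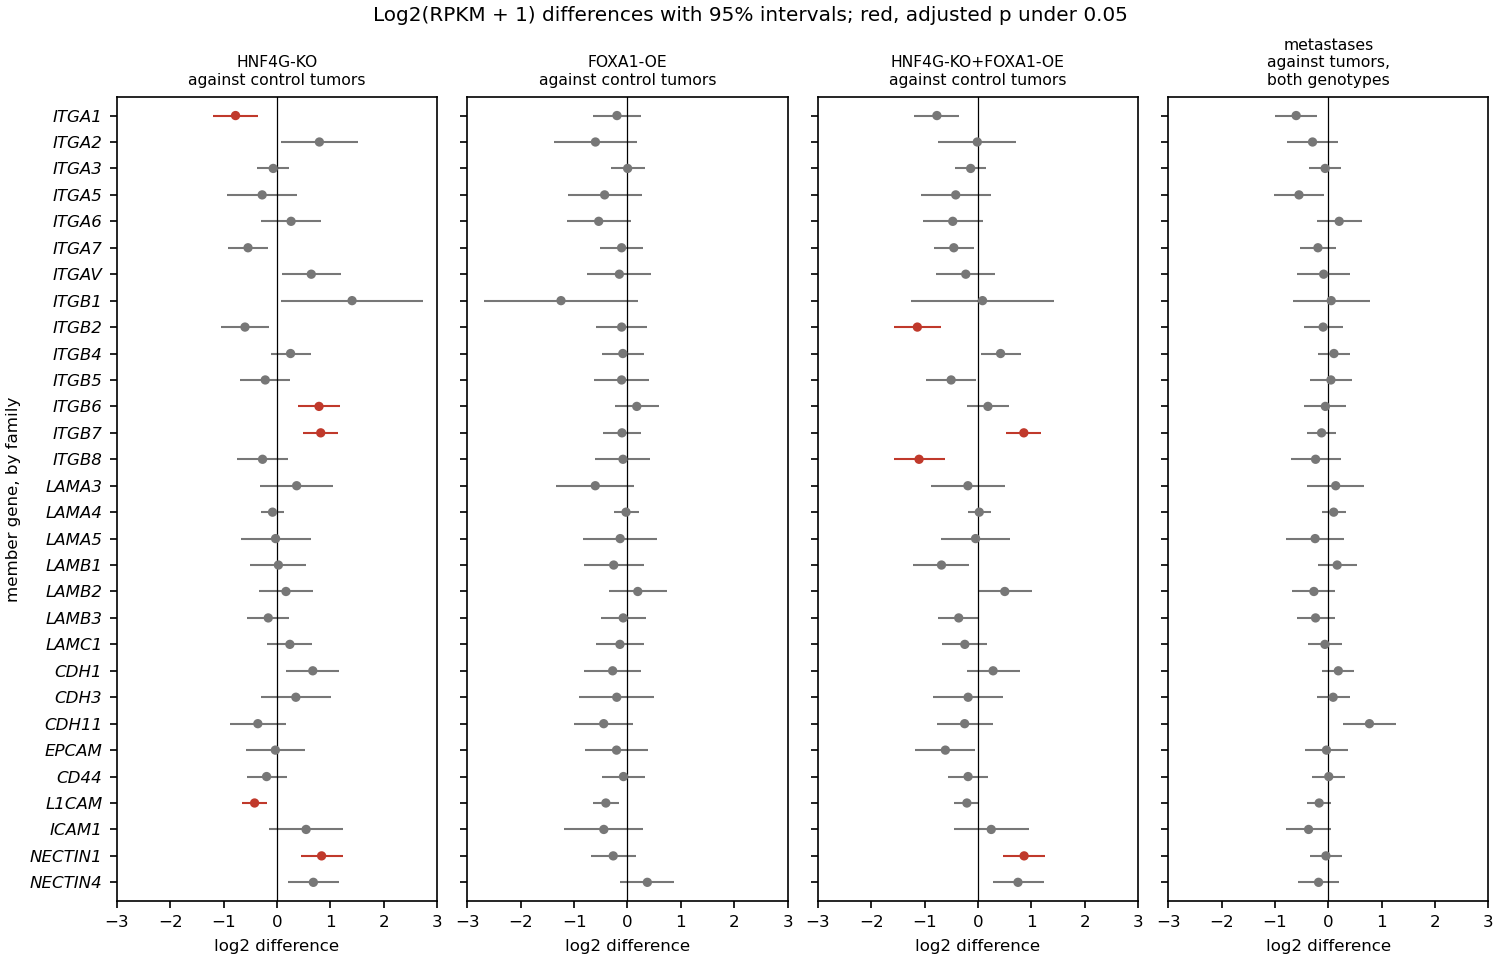
Log2 difference (horizontal, log2(RPKM + 1) scale) of each tested adhesion gene in 3 comparisons with control tumors and in metastases against tumors, with the 95% interval as a line and called genes in red. In HNF4G-KO+FOXA1-OE tumors ITGB7 (0.86) and NECTIN1 (0.87) lie to the right and ITGB2 (-1.13) and ITGB8 (-1.10) to the left, and no gene is red in the FOXA1-OE or metastasis panel.

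Each of these 4 calls depends on the tumors entered. With only the 2 groups compared in the fit, 0 genes passed in either comparison. Against controls 0 passed without control tumor 3, 1 passed without control tumor 1 or control tumor 2, and 2 passed without HNF4G-KO+FOXA1-OE tumor 1, tumors 2 and 3 together, or tumor 5. Against FOXA1-OE tumors, 2 passed without FOXA1-OE tumor 1 or tumor 2. Against FOXA1-OE tumors ITGB7 and NECTIN1 passed in 16 of 17 alternatives each, ITGB2 in 14 and ITGB8 in 10. Against controls ITGB7 passed in 14 of 17 alternatives, ITGB2 in 13, NECTIN1 in 8 and ITGB8 in 7.

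Within HNF4G-KO tumors, adding FOXA1 changed 0 of the 30 genes by limma (0.106% of all genes). An unadjusted p under 0.05 was found for 9 (3578 of all 19900 genes). The differences leaned downward, with 19 negative, 11 positive and a median of -0.24 against -0.025 over all genes. ITGB8 had the smallest p, at 2.27, 3.31, 3.08 and 2.53 RPKM in HNF4G-KO tumors, with a log2 difference of -0.83 (SE 0.23, adjusted p = 0.202). ITGAV was at 19.3, 32.8, 29.3 and 19.8 RPKM in HNF4G-KO tumors and 14.7, 19.4, 15.8, 16.1 and 6.90 with FOXA1 added, a difference of -0.87 (SE 0.26, adjusted p = 0.213). ITGB6 was at 46.1, 41.5, 30.9, 31.2 and 26.8 RPKM with FOXA1 added, a difference of -0.60 (SE 0.18, adjusted p = 0.213). These 3 genes code for ITGAV and its partners in the TGF-beta-activating integrins, and ITGAV was the one of them without overlap over mice. ITGA6 and LAMB1 were also lower without overlap, so that 3 genes in all were apart, where 13.3% of all genes were. For these 3 the two-sided exact permutation p was 0.0286, the smallest that 4 against 4 mice allow. Groups without overlap always give this p, so it adds nothing to the lack of overlap.

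The test of the interaction asked whether the FOXA1-OE difference was other in tumors labeled HNF4G-KO than in tumors without that label. It called 0 of the 30 genes (0.0352% of all genes), and 2 had an unadjusted p under 0.05 (1795 of all 19900 genes). L1CAM came first, with an interaction of 0.62 (SE 0.17, adjusted p = 0.343). Its log2 difference for FOXA1-OE was -0.41 without the HNF4G-KO label and 0.22 with it. The tumors with both changes were at 0.931, 0.705, 1.71, 0.810 and 0.621 RPKM. ITGB6 followed at -0.77 (SE 0.28, adjusted p = 0.447) and ITGB8 at -0.75 (SE 0.35, adjusted p = 0.554).

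Metastases were compared with the primary tumors of the same genotypes. Over both genotypes 0 of 30 genes were called by limma (0.0804% of all genes), and 3 had an unadjusted p under 0.05 (1719 of all 19900 genes). CDH11, a cadherin of mesenchymal cells, was the one furthest up. It was at 1.29 and 5.77 RPKM in the HNF4G-KO metastases, against 1.21, 1.46, 1.05 and 0.945 in their tumors. In the HNF4G-KO+FOXA1-OE metastases it was at 1.39, 1.33, 3.60 and 3.73, against 0.738, 1.41, 2.19, 1.93 and 1.09 in tumors. One HNF4G-KO metastasis and 2 of the other genotype were above all tumors of their genotype. The difference was 0.77 over both genotypes (SE 0.26, adjusted p = 0.383). The fibroblast markers were high in the same samples, with a summed level of 72.6 and 389 RPKM in the HNF4G-KO metastases, against 47.3 to 68.3 in tumors, and of 70.1 to 214 against 43.4 to 110 in the other genotype. With the fibroblast markers as a covariate the CDH11 difference was -0.13, and without HNF4G-KO tumor 2 it was 1.19 (adjusted p = 0.0443).

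ITGA1 and ITGA5 were the other genes of smallest p. ITGA1 was at 0.247 and 0.953 RPKM in the HNF4G-KO metastases, below all 4 of their tumors, and at 0.721, 0.598, 2.49 and 1.26 in the HNF4G-KO+FOXA1-OE metastases. Its difference was -0.60 over both genotypes (SE 0.20, adjusted p = 0.391) and -0.89 in HNF4G-KO alone (SE 0.30, adjusted p = 0.291). ITGA5, the fibronectin receptor chain, was at 0.893 and 1.70 RPKM in HNF4G-KO metastases, against 1.15, 2.33, 2.80 and 3.07 in tumors. In the other genotype it was at 0.718, 0.935, 1.73 and 0.554, against 3.97, 0.918, 0.966, 1.98 and 1.65, and the difference over both was -0.55 (SE 0.24, adjusted p = 0.546), with overlap in each genotype.

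Within mice labeled HNF4G-KO+FOXA1-OE, 0 of 30 genes were called by limma (0.0151% of all genes). An unadjusted p under 0.05 was found for 3 (1789 of all 19900 genes). FOXA1 itself was lower in metastases 1, 3 and 4 than in every tumor with this label. Its log2 difference between metastases and tumors was -1.53 (SE 0.32, limma adjusted p = 0.293), so differences here cannot be told apart from those of FOXA1 level. LAMB1, a beta chain of laminin-511, was at 19.4, 22.6, 25.5 and 23.8 RPKM in metastases and 14.5, 19.2, 21.6, 16.8 and 8.97 in tumors. CDH1 was at 96.6, 102, 117 and 110 RPKM in metastases and 89.6, 105, 89.3, 74.0 and 50.8 in tumors. Once samples of a mouse were averaged, LAMB1 and CDH1 were the 2 genes higher in all metastases, where 6.31% of all genes did not overlap. The differences were 0.64 for LAMB1 (SE 0.24, adjusted p = 0.529) and 0.52 for CDH1 (SE 0.21, adjusted p = 0.529). ITGA6 was at 85.0, 120, 182 and 152 RPKM against 91.5, 140, 108, 99.1 and 52.1, a difference of 0.68 (SE 0.29, adjusted p = 0.536), with overlap.

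Within HNF4G-KO mice, with metastases of 2 mice against 4 tumors, limma called 0 of 30 (0% of all genes). An unadjusted p under 0.05 was found for 3 (2582 of all 19900 genes). The genes lay apart for 1 higher and 8 lower, where 31.2% of all genes did not overlap. ICAM1, the ligand of the leukocyte integrins, was at 1.45 and 1.25 RPKM in metastases, below all tumors at 3.04, 3.32, 3.26 and 3.59. The difference was -0.87 (SE 0.33, adjusted p = 0.307), and the exact permutation test, two-sided, could not go below 0.133 in this design. The CDH11 difference in these mice was 0.87 (SE 0.39, adjusted p = 0.372), and metastasis 2, at 5.77 RPKM, was also the one with 389 RPKM of fibroblast markers. Of the 30 differences 27 were negative, with a median of -0.31, against -0.067 over all genes.

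The KPC lines test the same genes in matched primary and metastatic cells. Before the values, a feature of the libraries has to be given. In replicates 1 and 2 the metastasis line differed from the tumor line in one direction and in replicates 3 and 4 in the other, for 24 of the 26 genes tested and for 73.3% of all genes. The pooled comparison called 0 of 26 genes by limma (0% of all genes), and 0 had an unadjusted p under 0.05 (213 of all 16682 genes). The lines overlapped for all 26 genes, while 0.899% of all genes did not overlap.

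Cdh3, or P-cadherin, showed the largest swing. It was at 7.27 and 7.56 RPKM in tumor line replicates 1 and 2 and at 0.812 and 0.328 in replicates 3 and 4. The metastasis line was at 0.472 and 0.350 in replicates 1 and 2 and at 6.15 and 6.32 in replicates 3 and 4. The log2 difference between lines was thus -2.58 in the first pair of replicates and 2.22 in the second, and the difference between pairs was 4.80 (SE 0.24, limma adjusted p = 0.000125, a test chosen after seeing the data). Of the 26 genes, 12 differed between the pairs, where 16.3% of all genes did.

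In the pooled comparison the smallest p-values belonged to Epcam, Lamb3 and Lamb2. Epcam was at 3.02, 2.44, 7.05 and 5.32 RPKM in the tumor line and 4.92, 4.67, 1.30 and 1.81 in the metastasis line, a difference of -0.42 (SE 0.38, adjusted p = 1). Replicates 1 and 2 of the tumor line matched replicates 3 and 4 of the metastasis line in being low. Lamb3 was at 10.3, 10.3, 14.0 and 13.7 RPKM against 12.3, 13.0, 9.21 and 8.20, a difference of -0.17 (SE 0.17). Lamb2, the beta chain of laminin-521, was at 20.3, 17.1, 32.8 and 24.5 RPKM against 26.8, 27.5, 26.3 and 24.1, a difference of 0.18 (SE 0.18). Both overlapped between the lines. The same crossing was seen in Cdh1, at 262, 277, 199 and 163 RPKM in the tumor line and 148, 158, 332 and 298 in the metastasis line. Itga5 crossed the other way, at 11.9, 10.9, 35.2 and 24.6 RPKM against 21.5, 23.3, 13.6 and 12.2. Nectin1, at 0.373, 0.414, 2.43 and 1.77 RPKM against 1.97, 1.55, 0.306 and 0.382, moved with Itga5.

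Outside the 36 genes, the wider adhesion machinery was counted from lists of integrin adaptors, hemidesmosome and basement membrane genes, adherens junction genes and the remaining integrin and laminin chains. In HNF4G-KO tumors 4 of 22 adaptors were called against controls, 1 higher and 3 lower, where 9.33% of all genes were called, 4.96% higher and 4.37% lower. FLNA, the actin crosslinker filamin A that binds integrin tails, fell from a mean of 176 to 66.9 RPKM (log2 difference -1.40). PARVB, a parvin of the complex with integrin-linked kinase, fell from 2.54 to 0.587 (-1.16). FERMT2, or kindlin-2, fell by 0.73 and FERMT1, the epithelial kindlin-1, rose by 0.89. In the hemidesmosome list 1 of 11 was called, close to the share over all genes. This was COL17A1, the transmembrane collagen of hemidesmosomes, which rose from 39.7 to 92.7 RPKM (1.21). Of the adherens genes 1 of 10 was called, also close to the share of 9.33%. This was CTNND1, or p120-catenin, which rose from 54.2 to 101 RPKM (0.90). None of 3 other integrin and laminin chains was called. COL17A1, FLNA and PARVB were called in the same directions in HNF4G-KO+FOXA1-OE tumors against controls, at 0.83, -1.05 and -0.85, where 2 of 22 adaptors, 1 of 11 hemidesmosome genes and 1 of 10 adherens genes were called and 3.70% of all genes were. Against FOXA1-OE tumors 2 of 22 adaptors, 2 of 11 hemidesmosome genes, 2 of 10 adherens genes and 1 of the 3 other chains were called, where 6.77% of all genes were, and COL17A1 differed by 0.86 and FLNA by -0.87. These comparisons share samples. NECTIN3, a partner of NECTIN1 across the junction, fell by 1.04 against controls and by 1.00 against FOXA1-OE tumors. BCAM, a laminin receptor of the Lutheran blood group, fell by 1.38 against FOXA1-OE tumors. No gene of the 4 lists was called in the other comparisons.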

How the data were processed

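RNA-seq of 29 samples was used. Per the labels, libraries were made with a TruSeq stranded mRNA kit. The submitters' processing notes name STAR 2.6.1a and featureCounts 2.0.4. The authors deposited RPKM values, 1 table for each species, which correct for gene length and depth, and 12 columns of the KPC table belong to none of these samples and were not used. Depth was estimated from the steps between low RPKM values. Gene positions came from GENCODE 44 by Ensembl identifier (58250 of 58719 matched in the HPAF-II table and 54409 of 54446 in the KPC table, with a mouse annotation), and promoters from RefSeq.

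A gene entered the tests if its average over all libraries of a table reached 0.3 RPKM. Log2(RPKM + 1) was fitted with limma 3.58.1 in R 4.3.3 (lmFit, eBayes with a trend), and fold changes on this scale understate those of low genes. Benjamini-Hochberg adjustment ran over all genes tested, with calls at an adjusted p under 0.05. Primary tumors of 4 groups shared a fit, tumors and metastases of the HNF4G-KO genotypes another, and the KPC lines had their own, for 10 comparisons. Samples of the same kind from 1 mouse were averaged. Exact permutation tests were two-sided. Code was tested on simulated data. Alternatives were a pseudocount of 0.1, a filter at 1 RPKM or none, median centring, only the groups compared, replicate blocks, samples of a mouse entered separately, fibroblast markers as a covariate, no spleen metastasis and leaving out each replicate, with removal of the length and GC trend added after seeing the data. Figures and tables used matplotlib 3.10.9, numpy 2.4.6, pandas 2.3.3 and Python 3.11.15.

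Values in every sample are given for each adhesion gene called in a comparison and, where fewer than 3 were called, for those with the 3 smallest p-values. Of the pathway lists at most 3 called genes in each direction are named. The genes and lists were chosen with earlier results of these data known. The study's methods call its RNA-seq replicates biological. The p-values measure the spread between the samples used. In 4 mice a tumor and a metastasis come from the same animal, and their deviations from the group means correlated at 0.209, 0.249, 0.295 and -0.0657.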

Additional observations from a re-analysis of the deposited data

Results flagged for a closer look

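Each adhesion gene in each group of 4 was examined for a sample far from the rest, with HNF4G-KO+FOXA1-OE tumors 2 and 3 averaged as 1 mouse and the metastases taken as 4 samples of 3 mice. Of 142 such groups 8 had one (5.63%), where chance alone gives about 5%. ITGA2 was low in HNF4G-KO tumor 1, at 29.8 RPKM against 41.5 to 43.1 in the others. In HNF4G-KO+FOXA1-OE tumor 5, ITGA3 was high at 96.4 RPKM (others 73.0 to 76.0) and ITGB7 at 2.54 (others 1.05 to 1.15). In HNF4G-KO+FOXA1-OE tumor 4, ITGB2 was high at 5.08 RPKM (others 3.04 to 3.12) and ITGB8 at 2.49 (others 0.694 to 0.915). ITGB5 was low in HNF4G-KO+FOXA1-OE metastasis 2, at 19.1 RPKM against 24.4 to 24.8. In the KPC lines, Itgb2 was low in tumor line replicate 1, at 0.404 RPKM against 0.623 to 0.657, and Lama5 high in metastasis line replicate 3, at 224 against 165 to 173.

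In the KPC lines the difference between metastasis and tumor line was itself compared between pairs of replicates, as replicates 3 and 4 minus replicates 1 and 2 on the log2(RPKM + 1) scale, a test chosen after seeing the data. With limma, 12 of 26 genes passed. The value was positive for Cdh3 (4.80), Itga1 (1.73), Cdh1 (1.62), Icam1 (1.59) and Cdh2 (0.85). It was negative for Nectin1 (-2.18), Epcam (-2.13), Itga5 (-2.05), Cd44 (-1.64), Itgb5 (-1.30), Itgb4 (-1.05) and Lamb3 (-0.89). Over all genes 16.3% passed, and the cause was not tested.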

How the results depend on the processing

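In HNF4G-KO tumors against controls (5 adhesion genes called) the count was 2 without a filter on low values, 13 with only the groups compared, 11 without FOXA1-OE tumor 3 and HNF4G-KO+FOXA1-OE tumor 5, and 0 to 3 leaving out 1 replicate. In HNF4G-KO+FOXA1-OE tumors against controls (4 called) it was 2 without a filter, 0 with only the groups compared and 0 to 4 leaving out 1 replicate. With the tumor number as a replicate block it was 1. Against FOXA1-OE tumors (4 called) it was 0 with only the groups compared and 2 to 4 leaving out 1 replicate. In metastases of both genotypes it was 0 to 1, the 1 being CDH11 without HNF4G-KO tumor 2. In the KPC lines (0 called) it was 16 with replicates 1 and 2 alone and 1 with replicates 3 and 4 alone. The share of all genes called is not given for each alternative. No count in this section is therefore read as particular to the adhesion genes. The 5 comparisons not named here had 0 in every alternative run. Over all genes the counts ranged from 311 to 6150 (1857 called), from 0 to 1270 (736 called) and from 35 to 1938 (1347 called) in the first 3 comparisons named. Of the log2 differences of named genes under alternatives, 502 kept direction and side of the threshold, 72 lost the call, 2 gained it and 5 turned. Those 5 were CDH11 with the fibroblast markers as a covariate (-0.13 over both genotypes and -0.13 in HNF4G-KO alone), Epcam (0.64) and Lamb3 (0.27) with replicates 1 and 2 alone, and Lamb2 (-0.17) with replicates 3 and 4 alone. The causes were not tested. Tumor and KPC replicate numbers share only a number, with correlations of same-numbered samples from -0.255 to 0.601 and from -0.345 to 0.188. The replicate block by mouse changed no count of adhesion genes called in metastases. The number of mice limits every tumor comparison, and L1CAM and ITGB7 lie near 1 RPKM, where a pseudocount of 1 shrinks differences.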
